A study of Mus musculus with 4 samples.

Results

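The genes described here are Numb, its paralogue Numbl and 5 ubiquitin ligases tied to them, Lnx1, Lnx2, Siah1a, Itch and Nedd4. They were chosen by gene symbol, each symbol matched 1 identifier, and they make up 7 of the 55487 gene identifiers in the deposited tables. All 7 passed the expression filter of the test, as did 27551 identifiers in all. The RNA came from satellite cells, the stem cells of skeletal muscle, isolated from mice of the genotype Tg:Pax7-nGFP, a line whose nuclear GFP reporter follows Pax7, the transcription factor that defines these cells. Minced skeletal muscle was exposed, in the initial digestion step, to a vivo-morpholino, an antisense oligomer that enters cells without transfection. The Numb exon 6 morpholino was designed to block inclusion of that exon, and the comparison group received a control oligomer. The labels assign both a Numb exon 6 and a control library to each of 2 mice, which made 2 libraries a group and 4 in all, and both mice carried the same reporter. The sources used here do not give age, sex or the dose of the oligomers.

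Numb is an endocytic adaptor that binds membrane proteins through an amino-terminal phosphotyrosine-binding (PTB) domain and is known as an inhibitor of Notch signalling. In muscle stem cells Notch signalling holds cells in quiescence, and Numb is passed unequally to daughter cells at some divisions. Exon 6 encodes an insert in the PTB domain. The RING ligase LNX (Ligand of Numb protein X) is known in the mouse to ubiquitinate Numb isoforms that carry this insert, SIAH1 to target human NUMB for degradation, and the HECT ligase Itch to act with Numb on Notch1 and on the Hedgehog effector Gli1.

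In the GENCODE vM21 models (GRCm38), exon 6 of Numb lies at chr12:83825259-83825291 on the minus strand, inside the coding sequence. It is 33 bases long, or 11 codons with 0 bases left over, so its loss keeps the reading frame. The spliced sequences are shown because they are what the morpholino was meant to alter. Each has 27 bases of the preceding and 27 of the following exon in lower case, with exon 6 in capitals. The Numb sequences come from models Numb-207 and Numb-210, which differ by this exon alone. The Numbl sequence is the matching junction of model Numbl-201, on the plus strand of chromosome 7.
Numb exon 6 included: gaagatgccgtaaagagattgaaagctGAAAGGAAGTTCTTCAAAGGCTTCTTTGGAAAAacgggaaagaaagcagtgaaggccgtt
Numb exon 6 skipped: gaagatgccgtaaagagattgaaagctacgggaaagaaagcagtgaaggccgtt
Numbl: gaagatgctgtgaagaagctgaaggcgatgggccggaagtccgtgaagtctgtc
The skipped form of Numb and the Numbl junction were identical at 37 of 54 bases, and the Numbl model has 0 bases between these exons.

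Of the 12 annotated Numb models, 5 hold exon 6, and 3 join exon 5 to exon 7 in full without it. Only 3 models carry the last exon in its long form, of 2084 to 2121 bases. Numb-201, Numb-207 and Numb-210 hold the same exon cut to 716 bases, 713 of them coding, and start at the first coding base. Of the 3 long models, Numb-204 (3549 bases) is coding and lacks exon 6. Numb-202 (3468 bases) holds exon 6, Numb-203 (3435 bases) does not, and both are annotated as targets of nonsense-mediated decay. The other alternative coding exon, of 147 bases (chr12:83797197-83797343), is absent from Numb-204 and present in the other two.

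**Figure D1:**
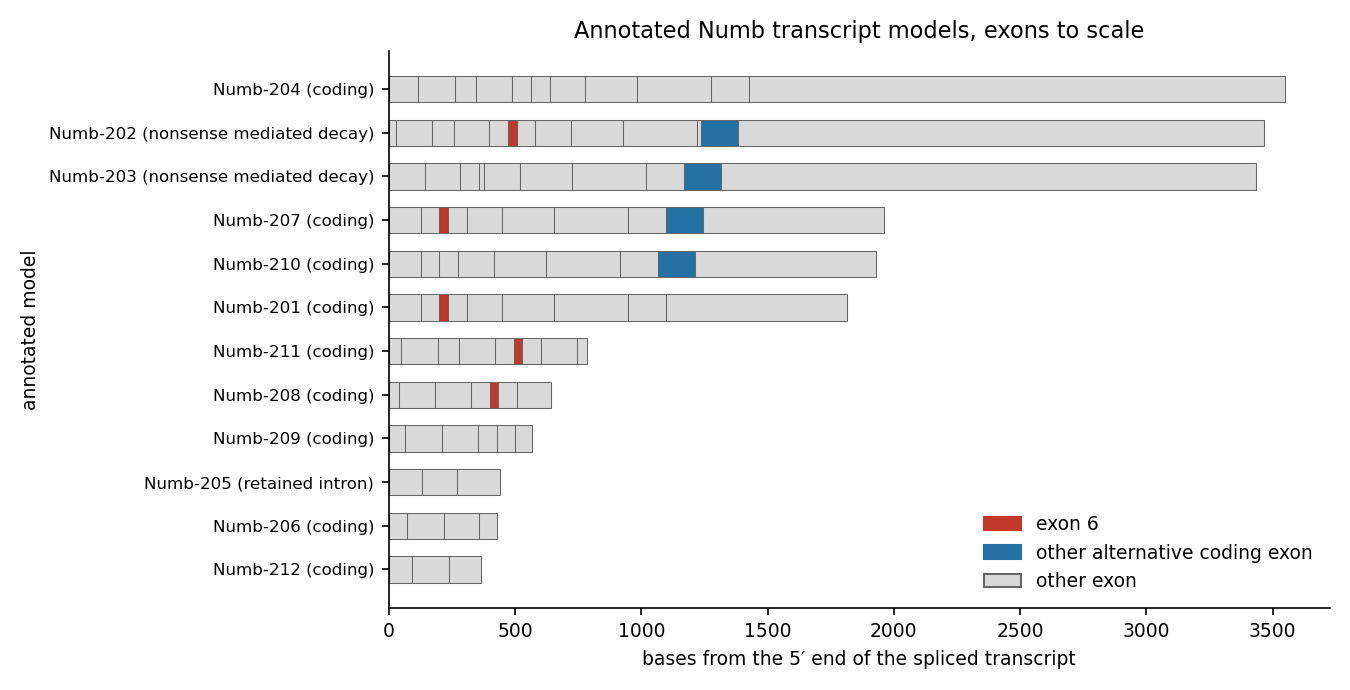
The annotated Numb models as spliced transcripts, with exons drawn to scale in bases from the 5′ end. Exon 6 (33 bases) is red, the other alternative coding exon (147 bases) is blue and other exons are grey. The coding model with the long form of the last exon, Numb-204, has neither coloured exon.

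Estimated counts totalled 318663258 and 230431665 in the Numb exon 6 libraries of mouse 1 and mouse 2, and 355411827 and 306485954 in the control libraries. These counts derive from coverage, so the totals are not numbers of fragments. All 9 satellite cell markers were present, from 37.0 to 7673 TPM, a level scaled to transcript length and library size. Their summed level was 11732 to 11862 TPM with the Numb exon 6 morpholino and 9948 to 10778 TPM with the control, with 6 of 9 higher in both mice. The summed level of 6 leukocyte markers was 36.4 to 48.1 TPM with the Numb exon 6 morpholino and 26.7 to 29.0 TPM with the control, with 5 of 6 higher in both mice. For 5 fibro-adipogenic progenitor markers it was 278 to 297 TPM with the Numb exon 6 morpholino and 221 to 250 TPM with the control, with 5 of 5 higher in both mice. The 5 endothelial markers summed to 66.0 to 84.0 TPM with the Numb exon 6 morpholino and 58.9 to 61.4 TPM with the control, with 3 of 5 higher in both mice. These 4 sums did not overlap between the morpholinos. Those of 6 myofibre and 4 glial markers did, at no more than 19.7 and 17.2 TPM in any library. The fast myosins Myh1, Myh2 and Myh4 lay under 1 TPM in every library. In counts scaled to library size, 28.1% of all tested genes were higher in both mice and 17.4% stood apart in that direction. The median log2 TPM ratio of tested genes above 0 was 0.068 in mouse 1 and 0.027 in mouse 2. Sdc4 made up most of the satellite cell sum and Tek of the endothelial sum. Cd68 and Lyz2 made up most of the leukocyte sum, where Csf1r was lower in both mice. The part of these markers in the results below was not tested. Over all genes edgeR called 0 of 27551 (0%) at an adjusted p of 0.05, and 1145 (4.16%) had an unadjusted p under 0.05. In the fit that takes the mouse as a block these counts were 0 (0%) and 1677 (6.09%). DESeq2 called 65 of the 27016 genes that it gave an adjusted p (0.241%). In its fit with that block it called 159 of 22743 (0.699%).

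None of the 7 genes passed the test. By edgeR's quasi-likelihood test all 7 had an adjusted p of 0.999, and 0 of 7 an unadjusted p under 0.05. On log2(TPM + 1), limma also had 0 of 7 under 0.05 unadjusted, against 4.7% of all genes. In CPM, the count scaled to library size with TMM factors, Numb, Lnx2 and Nedd4 were higher with the Numb exon 6 morpholino in both mice, against 28.1% of all tested genes. Numbl was lower in both, against 27.3%, and Lnx1, Siah1a and Itch differed in opposite directions in the 2 mice, against 43.9%. The groups did not overlap for 3 of the 7, again Numb, Lnx2 and Nedd4, against 17.4% of all genes that stood apart in this direction and 17.1% in the other. In bulk RNA, fewer cells of a type and less RNA per cell cannot be told apart.

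**Figure D2:**
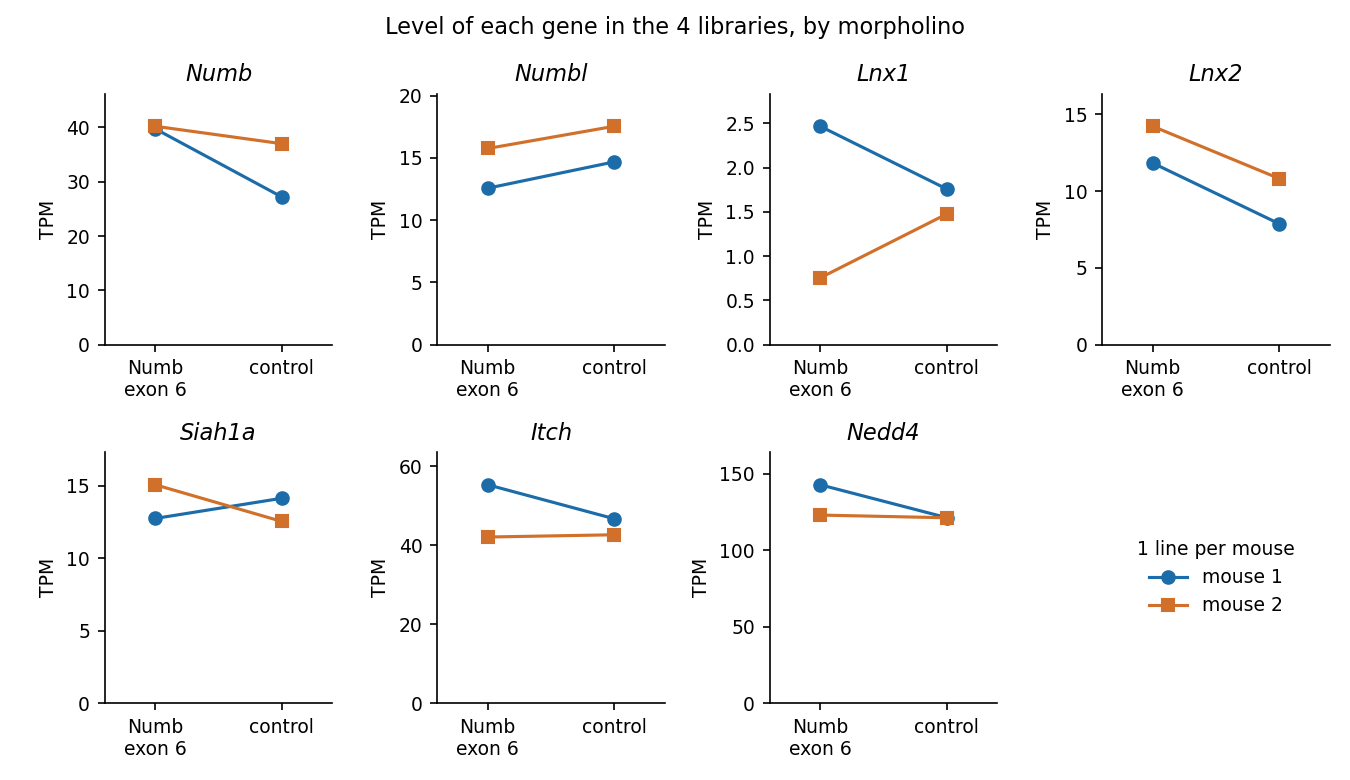
Level of each of the 7 genes in TPM (vertical axis, from 0), with the Numb exon 6 libraries left and the control libraries right. Each line joins the 2 libraries of a mouse. The lines slope the same way in both mice for Numb, Numbl, Lnx2 and Nedd4. They slope in opposite ways for Lnx1, Siah1a and Itch, and cross for Siah1a.

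Numb (chromosome 12, 83794034 to 83921934) stood at 39.7 and 40.2 TPM in the Numb exon 6 libraries of mouse 1 and mouse 2, and at 27.2 and 37.0 TPM in the control libraries. The control library of mouse 1 was the low one, and the groups did not overlap. The log2 ratio of Numb exon 6 to control CPM was 0.43 within mouse 1 and 0.12 within mouse 2. edgeR gave a log2 fold change of 0.27 ± 0.14 (SE, 2 libraries a group; 95% interval -0.09 to 0.64). With the mouse as a block it was 0.28 ± 0.12 (SE; 95% interval -0.03 to 0.59). Between the mice, the control libraries differed by about as much, with a log2 CPM of mouse 2 minus mouse 1 of 0.27, while the Numb exon 6 libraries differed by -0.04. Leaving out mouse 1's control library put the edgeR estimate at 0.14. On log2(TPM + 1) the log2 fold change was 0.32 ± 0.18 (SE; limma, adjusted p = 0.939). The morpholino acts on splicing, and a level per gene does not show whether exon 6 was skipped. Gm46367, on the opposite strand, shares 2.92% of the 50-base windows of the Numb models. Its mean log2 CPM was -1.05, and its log2 fold change was 0.52 ± 0.53 (SE).

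Numbl (chromosome 7, 27258433 to 27282144), which can stand in for Numb in parts of the mouse nervous system, stood at 12.6 and 15.8 TPM in the Numb exon 6 libraries of mouse 1 and mouse 2. It stood at 14.7 and 17.5 TPM in the control libraries. It was higher in mouse 2 than in mouse 1 under each morpholino, so that the groups overlapped although each mouse gave a lower value with the Numb exon 6 morpholino. The log2 CPM ratios within the mice were -0.24 and -0.24, and the edgeR log2 fold change was -0.24 ± 0.20 (SE; 95% interval -0.76 to 0.27). With the mouse as a block the SE was 0.11 and the interval -0.53 to 0.05. Exons of Numbl overlap those of Gm44641 on the same strand, whose mean log2 CPM was -2.17, and reads of that overlap cannot be told apart.

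The level of Numb relative to Numbl was examined after the values were seen. In TPM, Numb was 3.16 and 2.55 times Numbl in the Numb exon 6 libraries of mouse 1 and mouse 2, and 1.85 and 2.11 times in the control libraries. The log2 of this ratio differed by 0.77 within mouse 1 and 0.28 within mouse 2, a mean of 0.52. Since the ratio joins a gene seen higher with a gene seen lower, its separation of the groups is a description. An exact permutation test gave p = 0.333, the smallest that 2 libraries a group allow, so that test cannot decide.

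Lnx2 (chromosome 5, 147016655 to 147076586), a RING and PDZ domain ligase that binds Numb, stood at 11.8 and 14.2 TPM in the Numb exon 6 libraries of mouse 1 and mouse 2, and at 7.87 and 10.8 TPM in the control libraries. Within each mouse the Numb exon 6 library was the higher one, and the groups did not overlap, though mouse 1 with the Numb exon 6 morpholino lay close to mouse 2 with the control. The log2 CPM ratios were 0.51 and 0.36. The edgeR log2 fold change was 0.43 ± 0.20 (SE; 95% interval -0.08 to 0.94). With the mouse as a block it was 0.44 ± 0.12 (SE; 95% interval 0.12 to 0.75). The unadjusted edgeR p was then 0.016 and the adjusted p 0.796. That made Lnx2 the 1 gene of the 7 with an unadjusted p under 0.05 in that fit, against 6.09% of all genes. Leaving out 1 library at a time gave log2 fold changes from 0.24 to 0.64.

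Lnx1 (chromosome 5, 74592447 to 74702912), the founding LNX ligase, was the least abundant of the 7. It stood at 2.47 and 0.755 TPM in the Numb exon 6 libraries of mouse 1 and mouse 2, and at 1.76 and 1.48 TPM in the control libraries. The Numb exon 6 libraries were the highest and the lowest of the 4, with 1055 and 237 estimated counts, against 843 and 606 in the controls. The log2 CPM ratio was 0.45 within mouse 1 and -0.96 within mouse 2. The log2 fold change of -0.03 ± 0.58 (SE) had a 95% interval from -1.50 to 1.44, which holds a 2-fold difference in either direction. Leaving out mouse 2's Numb exon 6 library gave 0.58, and leaving out mouse 1's gave -1.12. Exons of Lnx1 overlap those of Fip1l1 on the opposite strand, and 9.21% of its 50-base windows also occur in Fip1l1. SMART-Seq2 libraries carry no strand, and in that overlap the genes cannot be told apart. Fip1l1, a factor of mRNA polyadenylation, had 60.1 and 51.3 CPM in the Numb exon 6 libraries and 66.6 and 58.2 CPM in the controls. In TPM, Lnx2 exceeded Lnx1 by 4.79 and 18.8 times in the Numb exon 6 libraries and by 4.47 and 7.33 times in the controls.

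Siah1a (chromosome 8, 86724007 to 86745934), a RING ligase related to Drosophila sina, stood at 12.7 and 15.1 TPM in the Numb exon 6 libraries of mouse 1 and mouse 2, and at 14.1 and 12.5 TPM in the control libraries. The order of the morpholinos turned between the mice, with log2 CPM ratios of -0.23 and 0.23. The log2 fold change was 0.003 ± 0.180 (SE; 95% interval -0.45 to 0.46), and its sign depended on the filter on low counts. Of the 1919 windows of 50 bases in Siah1a, 23.6% occur in another gene, so its counts are uncertain. Siah1-ps2 holds 263 of these windows, Siah1b 203 and Gm10638, on the opposite strand, 69. Siah1-ps2 and Gm10638 had a mean log2 CPM of -4.00 and -2.20. Siah1b stood at 11.8 and 9.73 TPM in the Numb exon 6 libraries and at 10.7 and 11.97 TPM in the controls, opposite to Siah1a in each mouse. Its log2 fold change was -0.13 ± 0.20 (SE).

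Itch (chromosome 2, 155133509 to 155226855) stood at 55.3 and 42.1 TPM in the Numb exon 6 libraries of mouse 1 and mouse 2, and at 46.7 and 42.6 TPM in the control libraries. The Numb exon 6 library of mouse 1 was the high one, while the libraries of mouse 2 were close to each other. The log2 CPM ratios were 0.22 and -0.06, and the log2 fold change was 0.09 ± 0.19 (SE; 95% interval -0.38 to 0.57). Leaving out mouse 1's Numb exon 6 library gave -0.15.

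Nedd4 (chromosome 9, 72662346 to 72749852 in the reference, whose version of the gene differs from that of the files) is a HECT ligase of membrane proteins that in Drosophila acts on Notch. It was the most abundant of the 7, with 143 and 123 TPM in the Numb exon 6 libraries of mouse 1 and mouse 2, and 121.2 and 121.1 TPM in the control libraries. The controls were nearly equal, and so was the Numb exon 6 library of mouse 2. In CPM the Numb exon 6 library of mouse 2 stood at 325.7, against 325.6 for its control, so the separation of the groups rested on mouse 1. Leaving out mouse 1's Numb exon 6 library gave a log2 fold change of 0.001. The log2 CPM ratios were 0.20 and under 0.001. The log2 fold change was 0.11 ± 0.12 (SE), with a 95% interval from -0.19 to 0.40, the narrowest of the 7.

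In the control libraries the order of the levels in TPM was Nedd4, Itch, Numb, Numbl, Siah1a, Lnx2 and Lnx1 in both mice. The Numb exon 6 libraries had Nedd4, Itch and Numb at the top and Lnx1 at the bottom, with Numbl, Siah1a and Lnx2 between 11.8 and 15.8 TPM. These 3 genes overlapped in the Numb exon 6 libraries, so their order there did not exceed the spread. In the controls they did not overlap, with 16.1 ± 2.02 TPM for Numbl, 13.3 ± 1.13 TPM for Siah1a and 9.34 ± 2.08 TPM for Lnx2 (SD, n = 2). Among the tested genes Nedd4 lay at the 95.8th to 96.5th percentile of TPM, Numb at the 84.8th to 88.3rd and Lnx1 at the 39.1st to 55.4th. The summed level of the 5 ligases was 225 and 195 TPM in the Numb exon 6 libraries and 192 and 189 TPM in the controls.

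**Figure D3:**
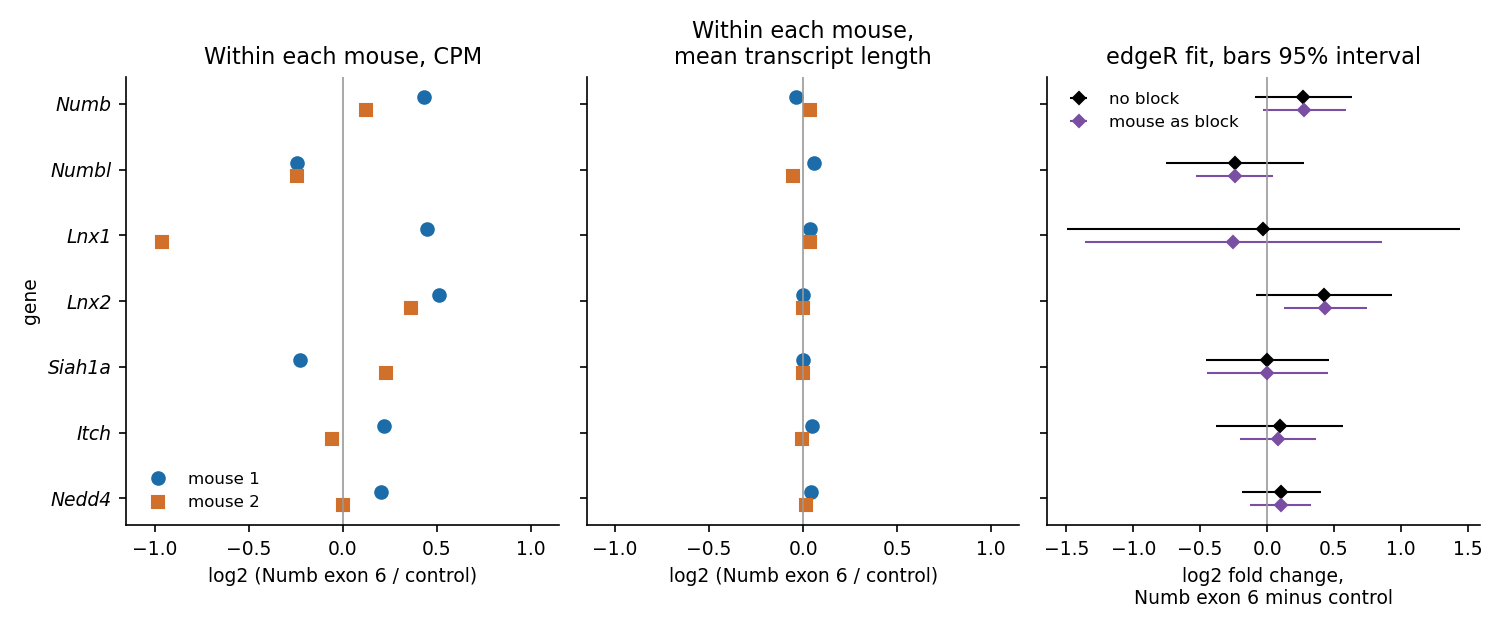
Change of each of the 7 genes with the Numb exon 6 morpholino relative to control, on log2 axes. Left, CPM ratio within each mouse; middle, ratio of mean transcript length within each mouse; right, edgeR log2 fold change with 95% interval, without and with the mouse as a block. With no block every interval includes 0; with the block that of Lnx2 runs from 0.12 to 0.75.

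The ratio of estimated count to TPM was then used to ask whether the mix of transcripts within each gene differed. A count is coverage times length and TPM is not, so their ratio, divided by 1 constant per library, is the mean length of a gene's transcripts, weighted by their TPM. The constant came from 2084 to 2614 genes with a single annotated transcript, of which at least 99.96% lay within 1% of it. Limma on the log2 mean length of 16142 genes called 0 (0%) between the morpholinos, with 956 (5.92%) at an unadjusted p under 0.05. None of the 7 genes was called, and 0 of 7 had an unadjusted p under 0.05.

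The mean length of Numb transcripts was 2971 and 2870 bases in the Numb exon 6 libraries of mouse 1 and mouse 2, and 3048 and 2795 bases in the control libraries. The Numb exon 6 libraries lay between the controls. The difference was -77.3 bases in mouse 1 and 74.3 bases in mouse 2. Exon 6 makes up 1.13% of the mean length of 2921 bases. If transcripts lost exon 6 and nothing else, a shift from all with it to none would move the log2 mean length by -0.016. The measured log2 change was 0.0004 ± 0.062 (SE; limma, adjusted p = 1.00), with a 95% interval from -0.23 to 0.23. A complete loss of exon 6 alone was therefore not detectable in this measure. The annotated models with exon 6 run from 644 to 3468 bases, and those without it from 364 to 3549 bases. Many differ in more than this exon, so the size and sign of the shift that skipping would give are not known. If only the annotated models were quantified, the 3 models with the long form of the last exon held 63.6% to 84.9% and 57.2% to 81.6% of Numb TPM in the Numb exon 6 libraries of mouse 1 and mouse 2. In the control libraries they held 68.4% to 87.4% and 52.5% to 79.2%. These ranges come from the lengths alone, and they overlap. They are shares of annotated models and do not show use of a different last exon.

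Numbl transcripts had a mean length of 3585 and 3675 bases in the Numb exon 6 libraries of mouse 1 and mouse 2, and of 3446 and 3809 bases in the control libraries. All 4 values exceeded the coding model Numbl-201 (2760 bases) and the retained-intron model Numbl-203 (3153 bases). Among the annotated models such means need a share in Numbl-205, a retained-intron model of 8511 bases. That share was at least 8.06% and 9.74% of Numbl TPM in the Numb exon 6 libraries, and at least 5.47% and 12.2% in the controls. As for Numb, the difference between morpholinos turned its sign between the mice, at 139 and -134 bases, and the log2 change was 0.003 ± 0.068 (SE; limma, adjusted p = 1.00).

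Lnx1 transcripts were longer with the Numb exon 6 morpholino in both mice, at 2615 and 2641 bases, against 2549 and 2579 bases in the controls. The groups did not overlap, but the share of all genes whose lengths stood apart in this way is not given here. Of the 7 genes, Lnx1 and Nedd4 were longer in both mice, against 30.6% of all genes, and 0 were shorter in both, against 20.7%. The log2 change of Lnx1 was 0.036 ± 0.010 (SE; limma, adjusted p = 0.871). In the fit with the mouse block it was 0.036 ± 0.003 (SE; limma, adjusted p = 0.716), and Lnx1 was the 1 gene of the 7 with an unadjusted p under 0.05, against 6.73% of all genes. The value of 2641 bases rests on 237 estimated counts. Its 9 models run from 966 to 3098 bases.

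The mean length of Lnx2 was 4556 to 4557 bases in all 4 libraries, close to the coding model of 4557 bases and far from the other model of 691 bases. Siah1a has a single model of 1968 bases, and its mean length was 1968 bases in each library, as the construction of the measure requires. Itch transcripts averaged 3381 and 3267 bases in the Numb exon 6 libraries of mouse 1 and mouse 2 and 3267 and 3275 bases in the controls. These means lie under both coding models (5159 and 5309 bases). If only the annotated models were quantified, at most 53.7% to 56.5% of Itch TPM could lie in the coding models in any library. The lower limit from the lengths alone was 0%. The log2 change was 0.02 ± 0.02 (SE; limma, adjusted p = 1.00). Nedd4 transcripts averaged 5137 and 5212 bases in the Numb exon 6 libraries and 4981 and 5163 bases in the controls, and the log2 change was 0.03 ± 0.03 (SE; limma, adjusted p = 1.00).

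**Figure D4:**
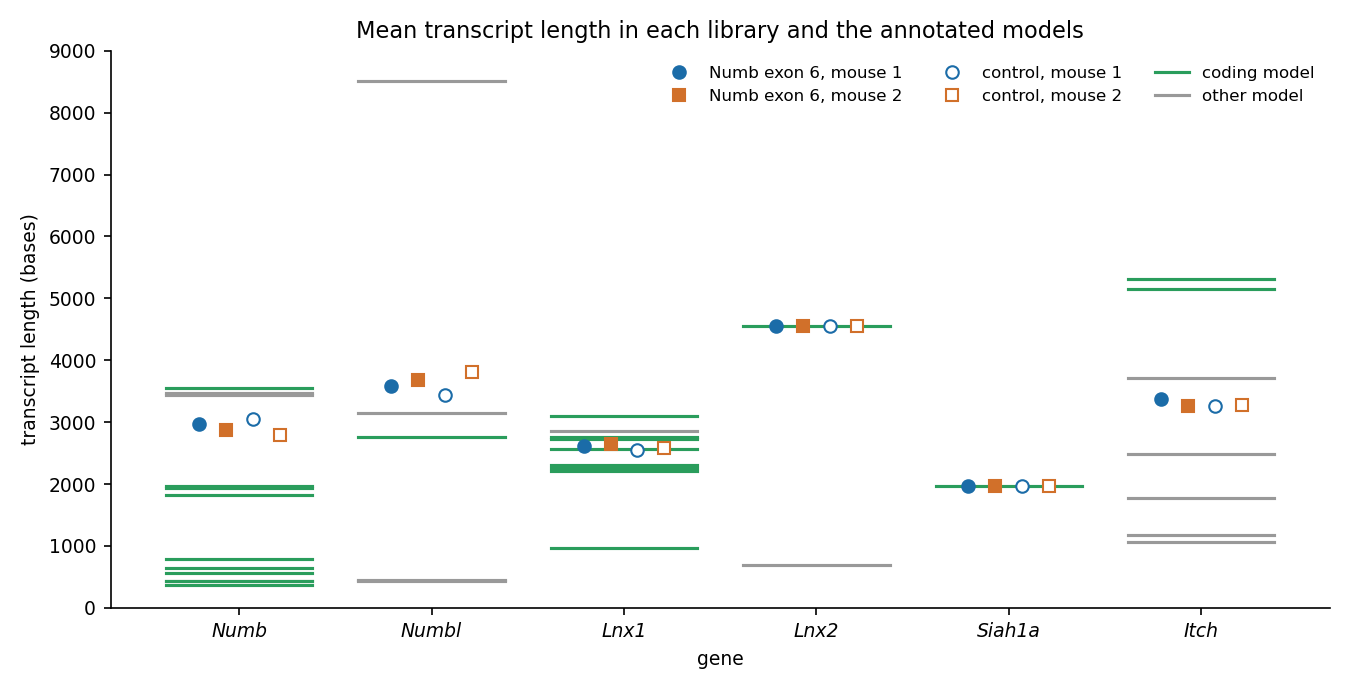
Mean transcript length in bases (vertical axis) in each library, with filled symbols for the Numb exon 6 libraries and open symbols for the controls, over horizontal lines at the lengths of the annotated models. Nedd4 is left out because its gene version differs from the reference. Numb lies between its long and short models, Numbl above its coding model, Itch below its coding models, and Lnx2 and Siah1a on theirs.

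The genes around Numb and these ligases were described by 6 lists of 85 genes, of which 84 were tested and Siah3 was not. The lists include the 5 ligases of this report, so the counts below take them in. Lnx2 is among the genes counted with the mouse block. By edgeR 0 of the 84 were called in either direction (0% of all genes). At an unadjusted p under 0.05 there was 1, against 4.16% of all genes, and there were 7 in the fit with the mouse block, against 6.09%. Their median log2 fold change was 0.05, against 0.005 over all tested genes. Of the 84, 27 were higher and 20 lower in both mice, against 28.1% and 27.3% of all tested genes. The counts of each list are given beside these shares as a description.

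Among the 9 NEDD4 family ligases, HECT enzymes with WW domains, 3 were higher and 1 lower in both mice, and the median was 0.06. Nedd4l, the closest relative of Nedd4, had the highest level, averaging 229 TPM with the Numb exon 6 morpholino and 222 TPM with the control (log2 fold change 0.05 ± 0.15, SE). Wwp2 had 0.24 ± 0.17. Hecw1 had -1.37 ± 0.55, at 0.114 TPM with the Numb exon 6 morpholino and 0.283 TPM with the control. Among 11 tested RING ligases the median was -0.03, with 4 higher and 3 lower in both mice. Mdm2, which targets p53 and binds Numb, stood at a mean of 106 TPM with the Numb exon 6 morpholino and 94.6 TPM with the control (0.13 ± 0.11, SE). Pdzrn3, a relative of the LNX ligases with a role in myogenic differentiation in mouse cells, stood at a mean of 0.213 TPM with the Numb exon 6 morpholino and 0.411 TPM with the control (-0.97 ± 0.52). Pdzrn4, chosen after its values were seen, had the most negative value of all lists, -3.26 ± 1.83 (SE), at no more than 0.179 TPM in any library.

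Adaptors and regulators of the ligases (16 genes) had a median of 0.08, with 6 higher and 1 lower in both mice. Arrdc3, an arrestin-domain adaptor of NEDD4 family ligases, had a log2 fold change of 0.46 ± 0.19 (SE). It stood at 221 and 153 TPM in the Numb exon 6 libraries of mouse 1 and mouse 2, and at 119 and 145 TPM in the controls, so that mouse 1 held most of the difference. The kinase Fyn, which phosphorylates Itch, had -0.27 ± 0.15, and the ubiquitin-conjugating enzyme Ube2d3 had 0.11 ± 0.10. The 18 binding partners and kinases of Numb had a median of -0.02, with 4 higher and 6 lower in both mice. Camk1, a kinase of Numb, had 0.23 ± 0.13, the endocytic protein Eps15 had 0.23 ± 0.13, and Dpysl2, a partner of Numb in endocytosis, had 0.16 ± 0.13 (SE).

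Regulators of Numb exon choice (13 genes) had a median of 0.05, with 4 higher and 4 lower in both mice. The list does not separate exon 6 from the other alternative coding exon. Srsf3 had 0.14 ± 0.10 and Rbfox1 had 0.58 ± 0.38 (SE), at a mean of 1.404 TPM with the Numb exon 6 morpholino and 1.05 TPM with the control. Rbfox2, which the title of the series names, was the 1 of the 13 with an unadjusted edgeR p under 0.05 with the mouse as a block. This compares with 6.09% of all genes, and Rbfox2 is named here after its values were seen. It stood at 86.4 and 132 TPM in the Numb exon 6 libraries of mouse 1 and mouse 2, and at 95.6 and 164 TPM in the controls, lower with the Numb exon 6 morpholino in both mice, though the mice differed by more than the morpholinos.

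The 17 substrates and pathway proteins of the ligases and Numb had a median of 0.02, with 6 higher and 5 lower in both mice. Ptch1, the Hedgehog receptor, was the 1 gene of the lists with an unadjusted edgeR p under 0.05 (log2 fold change -0.55 ± 0.17, SE; adjusted p = 0.999). It stood at 7.34 and 8.62 TPM in the Numb exon 6 libraries of mouse 1 and mouse 2. In the controls it stood at 11.2 and 9.78 TPM, with no overlap. In CPM, 17.1% of all tested genes stood apart in this direction. Ptch1 was named for its small p, so the lack of overlap adds no support. Gli1, the Hedgehog effector that Itch and Numb act on, had -0.12 ± 0.21 and was named after its value was seen. Dll1, a Notch ligand, had 0.50 ± 0.21, and Junb, a substrate of Itch, 0.23 ± 0.34 (SE). With the mouse as a block 5 of the 17 had an unadjusted p under 0.05 against 6.09% of all genes, namely Ptch1, Dll1, Notch1, Pax7 and Junb, and 0 were called. Notch1 and Pax7 are named for that count, after their values were seen.

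**Figure D5:**
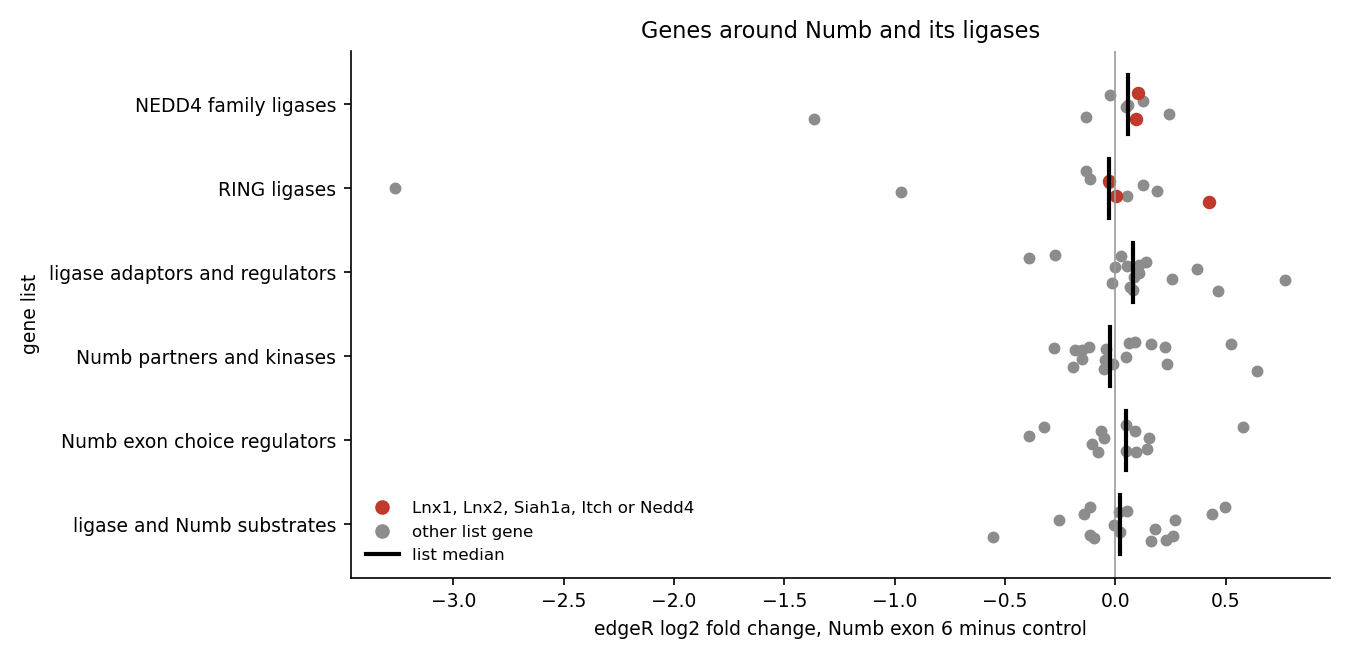
edgeR log2 fold change (horizontal axis, Numb exon 6 minus control) of each tested gene in the 6 lists, with the 5 ligases of this report in red, other genes in grey and list medians as black bars. The medians run from -0.03 to 0.08; the points farthest to the left are Pdzrn4, Hecw1 and Pdzrn3, all under 1 TPM.

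The genes whose pattern over the 4 libraries lay closest to that of Numb were Csf3, Tardbp and Prxl2c. The measure was the Euclidean distance between log2 CPM values centred on each gene's mean, among 8468 genes averaging 3 or more in log2 CPM, and the distances were 0.026, 0.030 and 0.035. Csf3 gave 11.8 CPM in each Numb exon 6 library, against 8.86 CPM in mouse 1 and 10.8 CPM in mouse 2 with the control. It encodes a granulocyte growth factor, while Tardbp encodes an RNA-binding protein. Over 4 libraries such closeness is a description.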

How the data were processed

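The labels' protocols give 5 ng of RNA per library, cDNA by SMART-Seq2, tagmentation and circular libraries, and the submitters' processing notes name GRCm38, HISAT2 2.1.0 and StringTie 1.3.6. The authors deposited estimated counts, which are whole numbers derived from coverage, and TPM values summed per gene and scaled to transcript length. The sources used here name neither the annotation release nor how coverage became counts. GENCODE vM21 (GRCm38) holds 55094 of the identifiers at the same version.

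Genes were tested with edgeR 4.0.16 in R 4.3.3 (quasi-likelihood, robust, TMM, default expression filter by group, no block, Benjamini-Hochberg over 27551 genes). SE values derive from the quasi-likelihood statistic. Mean lengths of genes with at least 100 counts and a TPM above 0 in every library were tested with limma 3.58.1. DESeq2 1.42.0 was an alternative. The 2 libraries of a mouse come from 1 animal, so the mouse pairs them. Their deviations from the group means correlated at 0.40 over 8469 genes averaging 3 or more in log2 CPM, and at 0.06 over all. The p-values of the test without the block take in the difference between the mice. Named genes were the 7, the 2 of each list with the smallest p, its most abundant member, and the 3 nearest to Numb. Rbfox2, Notch1, Pax7, Gli1 and Pdzrn4 fall outside this rule and were named after their values were seen. The genes and lists were chosen with earlier results of these data known. Figures were drawn with matplotlib 3.10.9.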

Additional observations from a re-analysis of the deposited data

How the results depend on the processing

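The 7 genes had 0 calls, and the related lists 0, under each of the 13 alternatives run for counts and TPM (12 for Lnx1). The lowest adjusted p of the 7 over these was 0.276, for Lnx2 in DESeq2 with the mouse as a replicate block. The number of genes called over the whole table, 0 in the edgeR test, was 10 without a filter on low counts, 1 where 2 libraries had to reach 5 CPM (where Lnx1 was not tested), 65 with DESeq2, 159 with DESeq2 and the mouse as a replicate block, 0 with edgeR and that block, and 0 to 1 with 1 library left out. The length comparison called 0 under all of its alternatives, the replicate block among them. Leaving out a library leaves 1 in its group, which is then assumed to vary like the rest.

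The directions of Numb, Numbl, Lnx2 and Nedd4 held under all alternatives run, where leaving out 1 library gave log2 fold changes of 0.14 to 0.41, -0.43 to -0.06, 0.24 to 0.64 and 0.001 to 0.20. The sign of Siah1a turned to -0.0066 without a filter on low counts and to -0.0022 with the filter at 5 CPM. With 1 library left out, the log2 fold changes that turned sign ran from -1.12 to 0.58 for Lnx1, -0.12 to 0.12 for Siah1a, -0.15 to 0.30 for Itch, -0.087 to 0.19 for Nedd4l, -0.15 to 0.75 for Junb and -0.29 to 0.0060 for Siah1b. With the library constant taken over all genes, the log2 length changes were -0.010 for Numb, -0.0080 for Numbl and -0.011 for Lnx2. With 1 library left out they ran from -0.062 to 0.063 for Numb, -0.070 to 0.075 for Numbl, -7.4e-05 to 1.0e-04 for Lnx2, -1.1e-04 to 2.8e-05 for Siah1a and -0.0019 to 0.048 for Itch. The cause of these turns was not tested. With 2 libraries a group and no count of fragments, the 95% intervals set what could be detected, widest for Lnx1.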
